A study of Rattus norvegicus with 6 samples.

Results

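Cortex and outer medulla, each 1 sample, were taken as one group and set against the other 4 tissues of the study. The group was chosen by the sample labels alone and comprised 2 of 6 samples and 4 of 12 data columns. All 6 samples came from male rats of the inbred strain BN (Brown Norway) aged 6 weeks, and no treatment is given for any of them. The other tissues were liver, adrenal gland, hypothalamus and the left ventricle of the heart. RNA sequencing had been used to measure long non-coding RNAs (lncRNAs), and the deposited table listed 2455 transcripts with values at 1646 loci. Of these, 2158 were above 0 in at least 1 cortex or outer medulla column and 2342 in at least 1 column of the other 4 tissues.

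Outer medulla is a zone of the kidney that holds the straight proximal tubules, the thick ascending limbs and part of the collecting ducts. Renal cortex holds the glomeruli, the convoluted tubules and parts of the same thick limbs and ducts, so these zones share epithelial cell types in different proportions. Many lncRNAs are made in few tissues, often next to or antisense to genes that mark the cells of that tissue. Since the cortex sample carries no organ in its label, it was compared with marker genes. The table holds lncRNAs and few markers: 2 of 63 nephron genes and 2 of 45 neural genes occur as a reference gene. The transcript at the nephron gene Slc12a1 stood at an FPKM of 12.2 and 14.7 in the cortex columns, while the highest of the 5 transcripts at the neural genes Sox2 and Dlx6 reached 0.0563 there against 4.04 and 4.41 in hypothalamus. The other nephron gene did not show the same: the transcript antisense to Slc34a3, a phosphate cotransporter gene, was under the level tested, with 0.15 and 0.698 in cortex, then 0.147 and 0 in outer medulla, but 1.275 and 0.501 in left ventricle. FPKM expresses fragments relative to the length of the transcript and the size of the library, so levels of different transcripts can be compared per length.

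Each tissue had 2 columns, and paired values are given in the order column 1 and column 2. Whether a pair of columns represents separate animals is not stated in the labels, and p-values here reflect column-to-column spread alone, which may be technical. The code of the hypothalamus columns was matched by elimination. Steps between low values implied a depth between 3750000 fragments (liver column 2) and 30800000 (hypothalamus column 2), with 14200000 to 17900000 in the cortex and outer medulla columns. A count of 0 is compatible with 3 fragments, which for 1 kb of transcript corresponds to 0.799 FPKM (liver column 2) at the shallowest and 0.0975 FPKM (hypothalamus column 2) at the deepest, counting error only. Of transcripts averaging at least 1 FPKM, 4.45% of 472 in cortex and 3.7% of 432 in outer medulla differed at least 4-fold between the columns of that tissue, against 19.9% of 473 in liver. In bulk tissue, fewer cells of a type and less RNA per cell cannot be told apart.

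The first comparison asked which lncRNAs stood, on average, higher or lower in cortex and outer medulla than in the other 4 tissues. Differences were tested with limma on log2(FPKM + 0.1) for the 1269 transcripts that averaged 1 FPKM or above in 1 tissue or more, and p-values were adjusted with the Benjamini-Hochberg method over all of them, with a threshold of 0.05. The mean of the 2 regions was higher for 396 transcripts (31.2% of those tested) and lower for 383 (30.2%). The median difference over all 1269 was -0.05 on the log2 scale. After tissues were scaled to a common median of the transcripts above 0 in every column, that median moved to -0.58 and the split became 306 higher and 509 lower. The balance of higher and lower calls therefore depended on the scaling, although none of the 46 transcripts named by rule, and none of those tested from the gene lists, changed direction where it could still be tested.

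Those counts treat the 12 columns as the replicates. With 1 mean per tissue as the unit, 2 tissues against 4, limma called 70 transcripts higher and 0 lower at the same threshold, and 216 and 13 at an unadjusted p under 0.05. All 70 were among the 396. With the columns as 2 groups of 4 and 8 and no term for tissue, 236 were higher and 12 lower. The lower side thus held few transcripts that were low against every other tissue: among the 383 lower transcripts, the highest tissue was liver for 122, adrenal gland for 112, left ventricle for 76 and hypothalamus for 73. For 319 of them at least 1 region was at or above at least 1 of the other 4 tissues. An exact one-sided permutation of 2 tissues against 4 has 15 arrangements and cannot give a p below 0.067 for a single transcript.

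A stricter question was which transcripts were higher in cortex and in outer medulla than in each of the other 4 tissues. For this the largest of the 8 pairwise p-values was adjusted over all 1269 transcripts. By this rule 101 transcripts at 83 loci were higher (7.96% of those tested) and 0 were lower (0%). At an unadjusted p under 0.05 the counts were 159 and 4. All 101 were also called in the mean comparison, and 57 of them were among the 70 calls with tissues as the unit. In the remaining 295 transcripts called higher in the mean, 131 had a region at or below another tissue, so the mean alone does not show that a transcript is high in both regions.

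Against single tissues, both regions were higher than liver for 222 transcripts (17.5%) and lower for 193 (15.2%). Against left ventricle 200 were higher (15.8%) and 151 lower (11.9%), and against adrenal gland 216 were higher (17%) and 177 lower (13.9%). Hypothalamus gave the most transcripts higher in both regions, 328 (25.8%), beside 146 lower (11.5%). It also had 243 transcripts averaging at least 1 FPKM, against 473 in liver, 404 in adrenal gland and 368 in left ventricle. The counts rest on FPKM as deposited, and whether their order holds with tissues rescaled was not tested. These comparisons share the cortex and outer medulla columns and are not independent of each other.

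Without any model, all 4 cortex and outer medulla columns lay above all 8 others for 205 transcripts (16.2% of those tested), and all 4 lay below for 14 (1.1%). The 205 held all 101 shared-high transcripts, the name used here for those above each other tissue in the test. For the other 104 the columns did not overlap but the test was not passed, and 103 of these were called higher in the mean. Their median spread between columns of a tissue was 0.562 on the log2 scale, against 0.38 for the 101 and 0.532 for all tested. A rule of size, at least 5-fold in both regions on tissue means plus 0.1, gave 77 transcripts above (6.07%) and 2 below (0.158%). Leaving out outer medulla column 2 reduced the 101 to 59, 58 of them from the 101. Leaving out both adrenal gland column 2 and hypothalamus column 1 reduced them to 36. No other pair of columns from different tissues was left out. The Sox2 transcript TCONS_00055701 stood at 0 and 0.891 in the adrenal gland columns. The Cyp11b3 transcript TCONS_00098844 stood at 5.89 and 1.21 in the hypothalamus columns. Whether RNA of 1 tissue was present in a column of another was not tested.

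**Figure D1:**
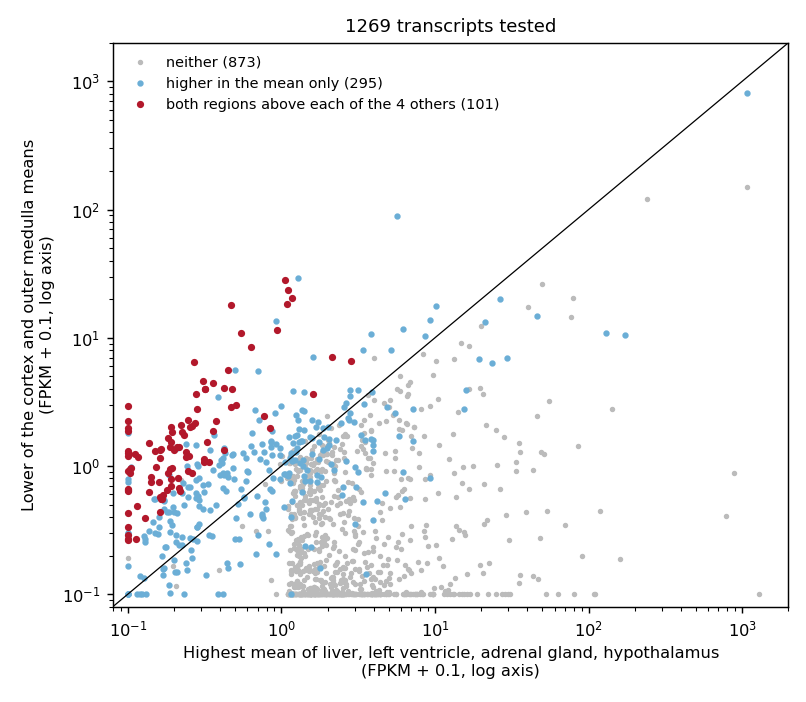
Each point is 1 of the 1269 transcripts tested, with the highest mean of the 4 other tissues on the x axis and the lower of the cortex and outer medulla means on the y axis, both as FPKM + 0.1 on log axes. The 101 transcripts above each other tissue (red) lie left of the line of equality, while the 295 called in the mean only (blue) lie on both sides of it.

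The difference between the lower region and the highest other tissue, called the gap, had a median of 2.9 on the log2(FPKM + 0.1) scale over the 101, which is 7.47-fold, and ranged from 2.35-fold to 44.9-fold. In 29 it was 10-fold or more. Levels were mostly low: the mean over the 4 columns had a median FPKM of 1.77, ranged from 0.667 to 34.3, was under 2 for 55 transcripts and was 10 or more for 8. Over all 1269 tested the median was 0.633. In 11 of the 101, every one of the 8 other columns was listed at 0, and such a 0 may be an estimate that failed, as no counts are at hand to tell.

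With 0.1 added before the logarithm, the largest gap belonged to TCONS_00035632, which is 1446 bases long and has no reference gene, at chr15:8606550-8618498 (rn5). Its FPKM was 28.0 and 27.0 in cortex, with 17.0 and 18.7 in outer medulla. In the other tissues it was 0 and 0.624 in liver, 0.619 and 0.122 in left ventricle, then 0.305 and 0 in adrenal gland, and 0 in both hypothalamus columns. The groups did not overlap, and both regions were far above the highest other column. The gap was 5.49 ± 1.0 (SE) on the log2 scale (limma, adjusted p = 0.012), and the call was lost when 3 of the 12 columns were left out in turn, with a largest adjusted p of 0.10. The order depends on the added value: with 0.01 its gap of 5.95 (adjusted p = 0.34 in limma) was below the 7.78 of TCONS_00021555, and with 1 its gap was below the 4.03 of TCONS_00037998.

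At chr1:35676445-35681226 all 4 transcripts of 1 locus were shared-high. TCONS_00007550, of 2337 bases, had an FPKM of 21.7 and 25.2 in cortex, with 32.3 and 30.1 in outer medulla, and its highest other value was 1.45 in left ventricle column 1. The gap was 4.54 ± 0.52 (SE) (limma, adjusted p = 0.0018), and the call held in all 24 refits with other settings or samples. TCONS_00007551 of the same locus stood at 17.0 and 19.8 in cortex, with 20.8 and 19.6 in outer medulla, with 1.98 and 0 in left ventricle. Its gap was 5.17 ± 1.16 (SE) (adjusted p = 0.029 in limma), and the call was lost for 10 of the 12 columns left out. For neither did the difference between the regions pass the test. Transcripts of a locus share reads and exons, so they are not separate observations.

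At chr15:30010515-30035706, 3 short transcripts were high in both regions. TCONS_00037998, of 310 bases, had 32.2 and 24.2 in cortex, with 34.0 and 34.0 in outer medulla. Elsewhere it was highest in left ventricle column 2, at 1.91, while left ventricle column 1 was listed at 0. The gap was 5.01 ± 1.11 (SE) (limma, adjusted p = 0.028), and the call was lost for 10 of 12 columns left out. TCONS_00037997 was more abundant, at 80.8 and 98.1 in cortex, with 96.0 and 97.2 in outer medulla, but liver column 2 at 8.24 and left ventricle column 1 at 6.83 widened its spread. Its mean difference was 5.83 ± 0.65 (SE) (adjusted p = 0.00013), and the shared-high test gave an adjusted p of 0.056 in limma. TCONS_00037999, at 28.3 and 47.4 in cortex, with 29.6 and 29.1 in outer medulla, showed the same, with a mean difference of 6.90 ± 1.07 (SE) and a shared-high adjusted p of 0.10 in limma. How the estimate divided reads among these 3 overlapping transcripts was not tested.

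TCONS_00100529 at chr8:33536860-33572665 was the most abundant of the 101. Its FPKM was 21.2 and 19.2 in cortex, with 47.3 and 49.4 in outer medulla, with 1.64 and 0.505 in adrenal gland but only 0.182 and 0.0714 in hypothalamus. The gap was 4.31 ± 0.80 (SE) (limma, adjusted p = 0.013), and 4 of the 12 columns, left out in turn, ended the call. Outer medulla was 1.26 ± 0.80 (SE) above cortex on the log2 scale, a difference that did not pass the test (limma, adjusted p = 0.48). The spread in that test comes from all 12 columns and not from the 2 regions alone.

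Several further transcripts with large gaps were at or near 0 in all 8 other columns. TCONS_00029009, at chr13:76635112-76723739 and overlapping the reference gene ENSRNOG00000048752, had 2.13 and 2.67 in cortex, with 2.147 and 2.136 in outer medulla, and at most 1.44e-05 elsewhere (limma, shared-high adjusted p = 0.00014). TCONS_00086614, at chr5:132932346-133570686, had 2.149 and 1.39 in cortex, with 2.10 and 3.55 in outer medulla and was listed at 0 in the other 8 (adjusted p = 0.00036, limma). Its 377 bases make a 0 less precise than for a long transcript. In liver column 2, 3 fragments correspond to 0.799 FPKM for 1 kb and to far more for 377 bases. The 0 listed there therefore cannot be told apart from its level in cortex. TCONS_00021555, at chr11:12488963-12523584, varied more, with 4.88 and 2.29 in cortex, with 4.51 and 1.13 in outer medulla, and stayed at or below 0.000385 elsewhere (adjusted p = 0.0033, limma). No fold is given for these because it would be set by the added 0.1.

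The other members with the largest gaps had low but measurable levels elsewhere. TCONS_00015341, of 512 bases at chr10:47440265-47450549, had 15.4 and 12.3 in cortex, with 6.65 and 4.26 in outer medulla, and 0.691 in liver column 2. TCONS_00034230 at chr14:22788097-22789262 had 6.39 and 7.54 in cortex, with 4.34 and 4.41 in outer medulla, and at most 0.521 elsewhere. TCONS_00108810 at chr9:19284677-19311302, a transcript of 11073 bases, had 7.01 and 7.36 in cortex, with 3.83 and 3.91 in outer medulla, and at most 0.37. In these 3 the cortex was the higher region in every column, and the difference between regions did not pass the test. Their calls were lost for 10, 10 and 1 of the columns left out.

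Of the 37 shared-high transcripts named by rule, 16 kept the call with each of the 12 columns left out in turn, 2 kept it in the 11 cases in which they could be tested, and 19 lost it at least once, most often without outer medulla column 2 (16). TCONS_00007550, TCONS_00029009, TCONS_00054117, TCONS_00076995 and TCONS_00086614 kept it in all 24 refits with other settings or samples. None of the 24 summed FPKM per locus. The locus of TCONS_00054117 summed to 0.413 in liver column 2, against at least 0.7165 in cortex and outer medulla. That of TCONS_00076995 summed to 1.63 in left ventricle column 1, against at least 13.16. For TCONS_00086614 the 0 in liver column 2 stays imprecise in every refit that holds it. With tissues rescaled, the call was narrowly lost for TCONS_00013754 (limma, adjusted p = 0.057), TCONS_00015341 (0.057), TCONS_00076998 (0.059) and TCONS_00059484 (0.063), besides 2 given with their values below. Adding 0.01 instead of 0.1 before the logarithm left 29 of the 101 calls.

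**Figure D2:**
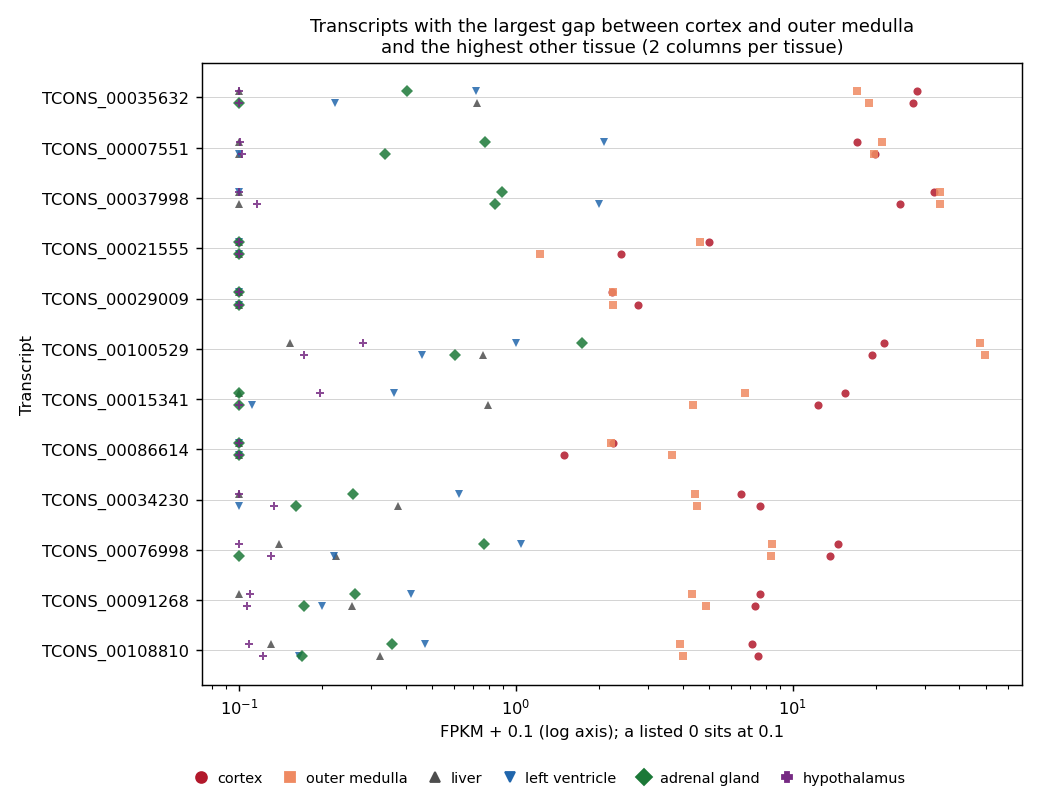
FPKM + 0.1 (log axis) in each of the 12 columns for the 12 shared-high transcripts with the largest gap, at most 1 per locus, with column 1 above column 2 in each row and 1 symbol per tissue. Cortex and outer medulla lie to the right of every other column in all 12 rows, and left ventricle or adrenal gland often come next.

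Loci with several shared-high transcripts held 29 of the 101, at 11 loci, and the other 72 loci held 1 each. At the locus chr4:230009067-230172683, which overlaps ENSRNOG00000048027, 3 of 3 tested transcripts were called. TCONS_00076998 had 14.4 and 13.6 in cortex, with 8.33 and 8.26 in outer medulla, TCONS_00076996 had 7.02 and 6.54 against 3.70 and 4.002, and TCONS_00076995 had 1.79 and 2.88 against 1.11 and 1.29. Cortex was the higher region for all 3, none of them passing the test between regions. At chr19:27667530-27699662, 4 of 6 tested transcripts were called, and at chr2:257523058-257634226 all 4 tested, 2 of which differed between the regions.

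The longest run of neighbouring shared-high loci lay on chromosome 6 and comprised 3 loci between 23086976 and 23420140. Its transcript TCONS_00091268, of 20124 bases, had 7.49 and 7.21 in cortex, with 4.24 and 4.76 in outer medulla, with 0.32 in left ventricle column 1. TCONS_00091251 of the next locus had 1.20 and 1.88 in cortex, with 1.19 and 0.905 in outer medulla. TCONS_00091233 of the third was lowest, at 2.53 and 0.806 in cortex, with 0.676 and 0.429 in outer medulla, and was listed at 0 in the other 8 columns. With 386 bases, its outer medulla values rest on fewer than 3 fragments, so a level of 0 cannot be told apart from them. Its call was lost for 5 of the 11 columns left out with which it could be tested. The run of 3 loci depends on this call. A further 8 runs held 2 loci each. Over the genome the 101 fell on 19 chromosomes, with 12 on chromosome 2 and 11 on chromosome 1.

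The 101 were compared with all 1269 tested by class and length, as a description of a set chosen by its test. Transcripts with no reference gene made up 82 of the 101 (81.2%) and 73.2% of those tested. Antisense transcripts, which lie on the strand opposite an exon of a reference gene, gave 13 of 105 tested (12.4%), transcripts sharing a splice junction 2 of 71 (2.82%), other overlapping ones 4 of 120 (3.33%) and those matching a reference gene 0 of 44. The share was 8.83% for transcripts with no reference gene and 7.96% over all tested. These counts are small, and differences between classes were not tested. The median length was 2337 bases against 1563. Longer transcripts had less spread between columns, with a median of 0.439 for those at or above the median length and 0.639 for shorter ones, and 64 of the 101 were in the longer set. Whether length set which transcripts passed was not tested.

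The second question was how far cortex and outer medulla differed within the shared-high set. In all 1269 transcripts, 76 were higher in cortex (5.99%) and 45 were higher in outer medulla (3.55%) at an adjusted p under 0.05. Among the 101, 16 differed (15.8%), 14 with the higher level in cortex and 2 in outer medulla. Cortex had the higher mean for 73 and outer medulla for 28, and the median difference was -0.65 on the log2 scale, against 650 and 619 and a median of 0 in all tested. Of the 101, 59 were within 2-fold between regions, and the largest difference was 7.76-fold. The 101 have less spread between columns than all tested, as given above, so the same difference passes more easily in them. That spread is 1 value per transcript pooled over all 6 tissues, so scatter among the other 8 columns enters the test between regions. A difference that did not pass can therefore have columns that lie close together within each region. Without left ventricle column 1 the 16 became 27, and they became 10 without outer medulla column 2, 10 without hypothalamus column 1 and 9 without hypothalamus column 2.

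Among those higher in cortex, TCONS_00036298 at chr15:37318521-37354440 had 1.77 and 3.45 in cortex, with 0.222 and 0.243 in outer medulla, and was listed at 0 in the other 8 columns. The difference of outer medulla from cortex was -2.96 ± 0.31 (SE) on the log2 scale (limma, adjusted p = 0.00075). TCONS_00080466 at chr4:241815509-241818400 had 1.53 and 1.46 against 0.129 and 0.245, a difference of -2.50 ± 0.24. TCONS_00094771 at chr7:69589634-69620012 had 1.24 and 1.26 against 0.21 and 0.131, a difference of -2.33 ± 0.21. All 3 were listed at 0 in every other tissue. These outer medulla values rest on few fragments. For TCONS_00036298, with 356 bases, 3 fragments correspond to 0.816 and 0.77 FPKM in the outer medulla columns, so its values there are under that limit and a level of 0 cannot be told apart from them. For TCONS_00080466 the same limit was 0.133 and 0.125, so its outer medulla column 1 was under it. For TCONS_00094771 it was 0.111 and 0.105.

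Only 2 of the 101 were higher in outer medulla by the test. TCONS_00054117 at chr2:51917374-51937633 had 0.672 and 0.399 in cortex, with 1.58 and 2.58 in outer medulla, a difference of 1.77 ± 0.31 (SE) on the log2 scale (limma, adjusted p = 0.009). TCONS_00094410, antisense to the homeobox gene Alx1, had 0.424 and 0.245 in cortex, with 1.523 and 1.504 in outer medulla, a difference of 1.92 ± 0.33 (SE) (limma, adjusted p = 0.0084). Its place in the shared-high set was weak: the gap was 1.39 (adjusted p = 0.038 in limma), and the call was lost for 9 of 12 columns left out (adjusted p up to 0.20), with an FPKM minimum of 0.5 (0.051) or none (0.074), with a pseudocount of 0.01 (0.65), and with tissues rescaled (gap 0.83, adjusted p = 0.37) or columns rescaled (gap 0.85, 0.32). TCONS_00040330 at chr16:26465059-26466673 had the same order at a higher level, 3.69 and 4.05 against 14.8 and 14.5, but its difference of 1.9 ± 0.64 did not pass (adjusted p = 0.12, limma).

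**Figure D3:**
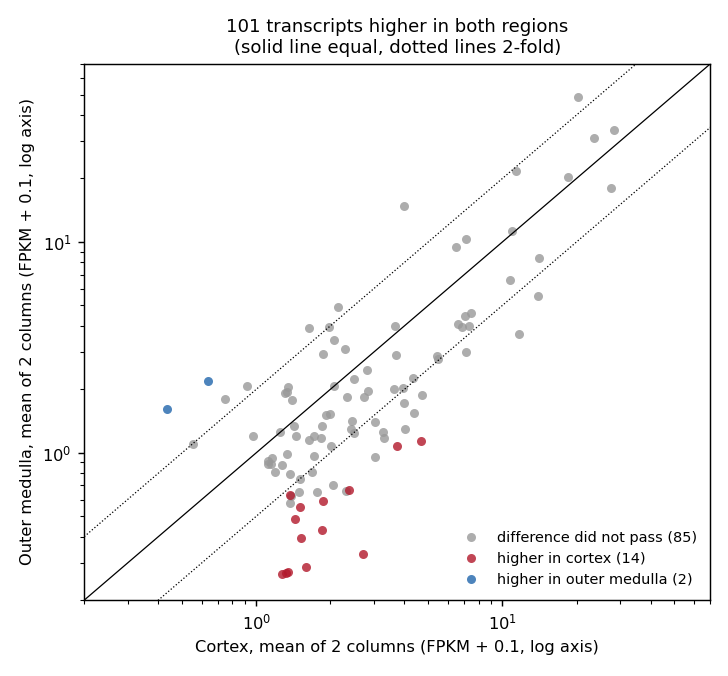
Mean FPKM + 0.1 of the 2 cortex columns (x axis) and the 2 outer medulla columns (y axis), both log axes, for the 101 shared-high transcripts. The 14 higher in cortex (red) lie below the lower 2-fold line and all have a cortex mean below 5 FPKM, and the 2 higher in outer medulla (blue) are among those lowest in cortex.

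A named or numbered reference gene was given for 19 of the 101, a symbol for 10 and an Ensembl identifier alone for 9. For transcripts antisense to or overlapping a gene, with a strand setting not given in the sources used here, reads of the gene itself may be part of these values. The promoters of 4 reference genes are printed because the lncRNA transcripts that overlap these genes or share a junction with them were higher in both regions on average: Slc12a1, the NKCC2 cotransporter of the thick ascending limb that loop diuretics block; Irx2, an Iroquois homeobox factor of nephron patterning; Klhl3, an adaptor of the ubiquitin ligase that degrades WNK kinases; and Gpr160, an orphan G protein-coupled receptor. Each runs 5′ to 3′ over 300 bases that end 50 bases after the RefSeq gene start on build GRCr8, which is not the build of the deposited table. Capitals mark 2 motifs on either strand, the CCAAT box (CCAAT or ATTGG) and the GC box (GGGCGG or CCGCCC), some of which overlap.
Slc12a1: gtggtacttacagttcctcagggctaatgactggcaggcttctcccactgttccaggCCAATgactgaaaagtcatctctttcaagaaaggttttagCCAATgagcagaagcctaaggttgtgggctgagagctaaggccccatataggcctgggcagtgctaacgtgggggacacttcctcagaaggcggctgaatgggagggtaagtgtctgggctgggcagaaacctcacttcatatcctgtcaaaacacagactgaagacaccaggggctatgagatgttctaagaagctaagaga
Irx2: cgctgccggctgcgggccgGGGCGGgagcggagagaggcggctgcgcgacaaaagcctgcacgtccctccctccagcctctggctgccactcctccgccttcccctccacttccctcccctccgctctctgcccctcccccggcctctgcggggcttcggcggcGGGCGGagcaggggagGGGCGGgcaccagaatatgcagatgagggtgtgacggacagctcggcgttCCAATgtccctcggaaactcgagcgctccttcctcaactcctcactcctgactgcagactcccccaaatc
Klhl3: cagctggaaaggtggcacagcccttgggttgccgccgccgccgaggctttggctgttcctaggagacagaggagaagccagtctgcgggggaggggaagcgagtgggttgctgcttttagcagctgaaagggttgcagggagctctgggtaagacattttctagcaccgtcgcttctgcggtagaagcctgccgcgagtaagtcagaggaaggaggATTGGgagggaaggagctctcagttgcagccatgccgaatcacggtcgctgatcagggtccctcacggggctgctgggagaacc
Gpr160: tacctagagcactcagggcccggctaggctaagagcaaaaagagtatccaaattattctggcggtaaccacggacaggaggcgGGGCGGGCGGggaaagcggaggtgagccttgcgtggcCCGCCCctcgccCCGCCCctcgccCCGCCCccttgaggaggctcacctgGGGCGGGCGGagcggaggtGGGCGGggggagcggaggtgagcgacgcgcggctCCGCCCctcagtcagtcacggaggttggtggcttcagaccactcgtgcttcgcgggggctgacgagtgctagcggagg
They lie at chr3:132859409-132859708 on the + strand for Slc12a1 (the first of 2 starts listed), chr1:32494881-32495180 on the - strand for Irx2, chr17:6528237-6528536 on the + strand for Klhl3 and chr2:114472425-114472724 on the - strand for Gpr160. Slc12a1 held 2 CCAAT boxes and 0 GC boxes in a window of 50.7% G and C, near the 51.7% median of all promoters. Irx2 held 1 CCAAT box and 3 GC boxes, Klhl3 held 1 CCAAT box, and Gpr160 held 9 GC boxes. Of 33469 promoters of the same length, 37.5% held a CCAAT box and 33.1% a GC box. The TATA motif TATAAA (14.2% of promoters) and the letters GTTAAT (7.45%), searched on both strands, occurred in none of the 4 windows. A match is a description of these letters and not a binding site, and whether the lncRNA transcripts begin at these starts was not tested.

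TCONS_00067610, the transcript of 530 bases that overlaps Slc12a1 at chr3:123944514-124022076, was the 1 transcript tested at a nephron gene. Its FPKM was 12.2 and 14.7 in cortex, with 36.5 and 36.6 in outer medulla. Elsewhere it was 0 and 1.32 in liver, 0.25 and 0.491 in left ventricle, then 1.501 and 0.146 in adrenal gland, and 0 in both hypothalamus columns. The mean difference was 6.11 ± 0.74 (SE) on the log2 scale (limma, adjusted p = 0.0002, and 0.018 with tissues as the unit). The shared-high test was not passed (adjusted p = 0.075, limma), and the liver and adrenal gland columns lay far apart. Outer medulla was above cortex in both columns, by 1.44 ± 1.21 (SE), which did not pass (limma, adjusted p = 0.63). The SE is pooled over all 6 tissues, so the scatter of the liver and adrenal gland columns enters it. Within each region the columns lay close together.

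Transcripts at 3 transcription factor genes of kidney epithelium were higher in the mean. TCONS_00007547, which shares a splice junction with Irx2 at chr1:34682430-34688217, had 1.06 and 1.42 in cortex, with 2.06 and 1.92 in outer medulla and at most 0.408 elsewhere (mean difference 3.20 ± 0.42 SE, adjusted p = 0.00032 in limma). TCONS_00098119, antisense to Grhl2, a factor of epithelial junctions, had 1.16 and 0.621 in cortex, with 3.18 and 3.23 in outer medulla and at most 0.285 elsewhere (difference 3.62 ± 0.38, adjusted p = 9.6e-05 in limma). TCONS_00051097, antisense to Irx3, had 0.938 and 1.09 in cortex, with 0.751 and 0.878 in outer medulla and at most 0.197 elsewhere (2.77 ± 0.19, adjusted p = 1.1e-05 in limma). All 4 columns lay above all others in each. Of the 3, the Irx3 transcript alone passed the shared-high test (adjusted p = 0.0072, limma), against 0.15 for Irx2 and 0.10 for Grhl2. With tissues as the unit the adjusted p was 0.066, 0.066 and 0.11 for Irx2, Grhl2 and Irx3. The Wt1 antisense transcript TCONS_00071430, at a gene of podocytes, was listed at 0 in all 4 columns and at 2.69 and 0.496 in liver (adjusted p = 0.051 in limma, and 0.049 with tissues rescaled). The Irx3 transcript fell under the FPKM minimum when tissues were rescaled and was then not tested.

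TCONS_00102556, antisense to the organic anion transporter gene Slc22a13, had 0.83 and 1.35 in cortex, with 0.653 and 0.776 in outer medulla, and 7 of the 8 remaining columns were at 0. TCONS_00044335, which shares a junction with Klhl3, had 1.10 and 0.927 in cortex, with 0.969 and 0.608 in outer medulla and at most 0.256 elsewhere, with an adjusted p of 0.046 in limma that was lost for 10 of 11 columns left out. TCONS_00059484, which shares a junction with Gpr160, had 1.23 and 1.23 in cortex, with 1.63 and 2.06 in outer medulla, and left ventricle came next at 0.432 and 0.219. The antisense transcript TCONS_00086388 of Fggy, a carbohydrate kinase gene, had 2.02 and 2.09 in cortex, with 4.95 and 4.67 in outer medulla and at most 0.223 elsewhere.

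The highest shared-high transcript at a gene with a symbol was TCONS_00103092, antisense to Vstm5, which encodes a membrane protein of the immunoglobulin type. It had 12.3 and 10.8 in cortex, with 3.17 and 3.92 in outer medulla, and at most 0.284 elsewhere (limma, shared-high adjusted p = 0.004). The difference of outer medulla from cortex, -1.68 ± 0.53 (SE), did not pass (adjusted p = 0.096, limma).

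Other antisense members lay at genes of general regulators. Zeb1, a factor of epithelial to mesenchymal transition, had the antisense transcript TCONS_00045111 at 1.41 and 1.06 in cortex, with 0.627 and 1.15 in outer medulla. Mxi1, a MYC antagonist, had TCONS_00013754 at 1.23 and 1.31 against 0.793 and 0.592. Tpd52, a gene of vesicle traffic, had TCONS_00059229 at 1.26 and 1.55 against 0.824 and 0.47. In these 3 the highest other value was 0.183, in left ventricle column 2 for Mxi1.

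Of the genes with an Ensembl identifier alone, TCONS_00058903, antisense to ENSRNOG00000018121, had 7.74 and 6.26 in cortex, with 8.52 and 12 in outer medulla. Its hypothalamus columns held 2.17 and 1.903, and the gap was 1.73 ± 0.32 (SE) (limma, adjusted p = 0.012). It fell to 0.66 with tissues rescaled (limma, adjusted p = 0.67) and 0.70 with columns rescaled (0.42), so the call was lost, as it was without cortex column 1 and without hypothalamus column 2 (largest adjusted p 0.074). TCONS_00098456, antisense to ENSRNOG00000036522, had 4.79 and 5.80 in cortex, with 2.80 and 2.75 in outer medulla. TCONS_00064795, TCONS_00064246 and TCONS_00063552 lay antisense to further such genes on chromosome 20, with means of both regions below 5 FPKM.

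**Figure D4:**
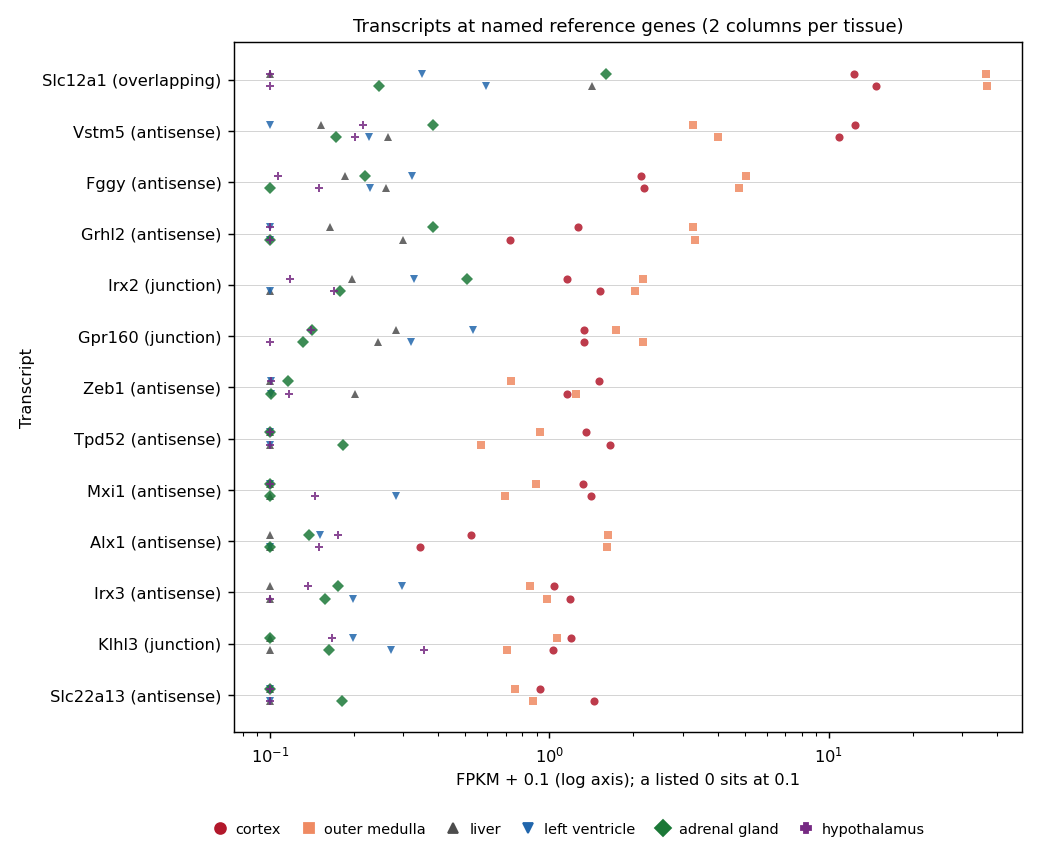
FPKM + 0.1 (log axis) in each of the 12 columns for the 10 shared-high transcripts at genes with a symbol and those at Slc12a1, Irx2 and Grhl2. Rows are ordered by the mean in cortex and outer medulla, with column 1 above column 2. Tested transcripts at other symbols, such as Wt1, Cyp11b3, Plagl1, Myl1, Mir675 and Fga, are not shown. The position of the 2 regions follows from this choice. Cortex and outer medulla lie right of all other columns in every row; both outer medulla columns exceed both cortex columns for Slc12a1, Fggy, Grhl2, Irx2, Gpr160 and Alx1, and the reverse holds for Vstm5, Mxi1, Tpd52, Slc22a13 and Irx3.

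The gene lists gave few transcripts, since the table holds lncRNAs. Of 49 developmental and lineage transcription factors of the kidney, 5 occurred as a reference gene, 4 of their transcripts were tested, 3 were higher in the mean and 0 lower (31.2% and 30.2% over all 1269, median difference 2.99 against -0.05), and 1 was shared-high (7.96% over all). For nephron genes the 1 transcript tested, that at Slc12a1, was higher. Of 5 tested transcripts at hepatocyte genes, 0 were higher and 4 lower (31.2% and 30.2% over all tested, median -1.77); the exception, at the fibrinogen gene Fga, was listed at 0 in liver. The single tested transcripts at an adrenal gene (Cyp11b3), a neural gene (Sox2) and a stromal gene (Pdgfrb) were each lower. The transcript at the muscle gene Myl1 had 32.1 and 36.5 in cortex but 0.695 and 0.937 in outer medulla. Its left ventricle columns stood at 4.43 and 34.9, the adrenal gland columns at 34.7 and 32.4, and its mean difference of 0.55 did not pass (adjusted p = 0.53, limma). Of 3 tested transcripts on the list of known lncRNAs and microRNA hosts, that at the imprinted gene Plagl1 was higher in the mean (1.18, adjusted p = 0.0022), that at Mir675, whose precursor lies within H19, was lower (-2.17, adjusted p = 0.00059) and that at Snhg11 did not pass (0.52, adjusted p = 0.65). The Mir675 transcript was low in outer medulla alone of the 2 regions, at 0.318 and 0.176 against 14.3 and 17.8 in cortex (difference of outer medulla from cortex -5.56, adjusted p = 0.00045 in limma). It was highest in liver, at 39.2 and 100.3. Left ventricle held 8.45 and 18.45, adrenal gland 13.3 and 16.1, and hypothalamus 1.14 and 0.774. The Plagl1 transcript was nevertheless highest in adrenal gland, at 6.12 and 5.30 against 1.64 and 1.59 in cortex, with 1.99 and 2.87 in outer medulla.

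No transcript was lower in both regions than in each other tissue at an adjusted p under 0.05 in limma, and 4 were at an unadjusted p under 0.05. These 4, named after their values were seen, were TCONS_00096637, TCONS_00073698 at Reln, TCONS_00040312 at Psd3 and TCONS_00082570. TCONS_00096637 at chr7:9865669-10274413 had 1.41 and 1.27 in cortex, with 1.84 and 1.17 in outer medulla, below 3.13 and 7.03 in liver, 5.59 and 8.61 in left ventricle, then 86.9 and 83.6 in adrenal gland, with 9.18 and 3.72 in hypothalamus. The Psd3 transcript had 0.655 and 0.834 in cortex, with 0.903 and 0.613 in outer medulla and at least 1.31 elsewhere. The 4 columns of the Reln transcript were at or below 0.223, and its lowest other value was 0.487. All 4 were highest in adrenal gland.

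The 3 lowest mean differences outside the shared sets were also set by adrenal gland, alone or with hypothalamus. TCONS_00096639, a fragment of 184 bases in the same region of chromosome 7, was listed at 0 in all 4 columns and stood at 72.7 and 52.7 in adrenal gland (mean difference -5.38 ± 0.90 SE, adjusted p = 0.0011 in limma). Liver column 1 was also at 0; without that column the transcript was lower in both regions than in each other tissue (adjusted p = 0.028, limma), and without liver as a whole likewise (0.017). TCONS_00098844, overlapping the steroid hydroxylase gene Cyp11b3, was listed at 0 in all 4 columns against 60.5 and 44.4 in adrenal gland. These were the 2 transcripts that met the 5-fold rule below. TCONS_00090635 had 0.102 to 0.532 in the 4 columns, 47.1 and 43.0 in adrenal gland, with 44.2 and 52.4 in hypothalamus (-4.45 ± 0.48 SE, adjusted p = 0.0001 in limma).

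The last question was which tissue came next to cortex and outer medulla and how much signal each other column held. Among the 101, the next tissue by mean was left ventricle for 45, liver for 23, adrenal gland for 20 and hypothalamus for 13. Because the 101 had been chosen as low in all 4, the level was also measured in transcripts chosen without the tissue in question: a mean FPKM of at least 1 in both regions and at least 5 times the highest of the other 3 tissues. By that choice, left ventricle column 1 held a median of 7.32% of the cortex and outer medulla level over 80 transcripts, and left ventricle column 2 held 1.23%. Adrenal gland held 4% and 1.13% over 77 transcripts, liver 0.309% and 2.09% over 82, and hypothalamus 0.0035% and 0.00472% over 72. In left ventricle column 1, 9 of the 80 were listed at 0, against 29 in column 2, although the implied depths were alike at 9920000 and 9880000 fragments. By these medians the columns of left ventricle, liver and adrenal gland each differed from each other more than those of hypothalamus did. Column 2 was the higher one in liver. What part these differences played in the calls was not tested. The shared-high count was 108 without left ventricle column 1 and 69 without left ventricle column 2.

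**Figure D5:**
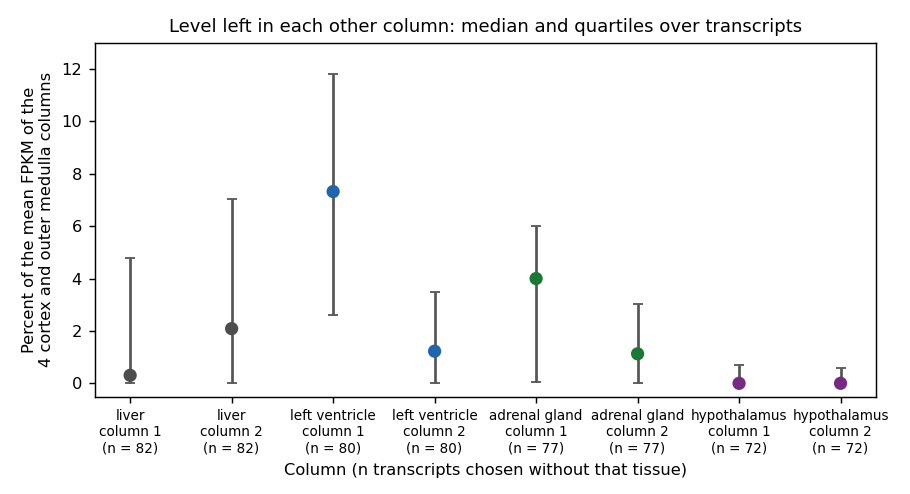
Median (point) and quartiles (bars) over transcripts of the FPKM in each other column, as a percent of the mean of the 4 cortex and outer medulla columns, for transcripts chosen without the tissue shown. Left ventricle column 1 has the highest median, 7.32%, and both hypothalamus columns lie near 0.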

How the data were processed

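RNA was measured in 1 sample of each of 6 tissues, with 2 columns per tissue. TRIzol extraction and a stranded TruSeq kit were used, per the labels' protocols. The submitters' processing notes name build rn5 and the tool bcl2fastq (2.15.0). The authors deposited FPKM values, with a program and annotation not given in the sources used here. Class codes and coordinates are as deposited, with the base from which starts are counted not stated. Transcript length was a further deposited value.

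From FPKM, log2(FPKM + 0.1) was computed and fitted with limma 3.58.1 (R 4.3.3, mean-variance trend) over all 12 columns, 1 coefficient per tissue, keeping transcripts that averaged 1 FPKM or above in 1 tissue or more. The added 0.1 understates changes of low transcripts. Python 3.11.15, pandas 2.3.3, NumPy 2.4.6 and matplotlib 3.10.9 were used for the rest. The group was defined by sample labels and not by values. That choice, the gene lists and the rule for named transcripts were made with earlier results of these data known. The rule took the 12 largest gaps with at most 1 per locus, the 5 most abundant shared-high transcripts, the 3 largest region differences in each direction, the 3 largest mean differences in each direction outside the shared sets, transcripts at kidney list genes or with a reference gene, and the longest run of loci. Low values of transcripts over 500 bases alone at their locus fell on steps (66% to 81.9% within 0.15 of a whole fragment, assuming fragments of 140 bases), from which depth was estimated; no counts were recovered. On simulated data the shared-high test recovered 2.99% of changes simulated at 2-fold, 49.3% at 4-fold and 75.8% at 8-fold, with 0 of 85 calls false over 1269 transcripts. Unchanged transcripts there had both regions level with the highest other tissue, a setting in which false calls are rare by construction. The simulated noise was normal, with limma's own spread, and alike in every tissue, unlike the real columns. These figures therefore give no error rate for the 101 calls. Alternatives were other FPKM minimums, pseudocounts and scalings, sums per locus, a block for column number, robust moderation, tissues as the unit and leaving out columns or tissues. Promoters came from RefSeq (GRCr8); 0 Ensembl identifiers matched its gene table.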

Additional observations from a re-analysis of the deposited data

Results flagged for a closer look

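Within the shared-high set, 5 transcripts named by rule differed between cortex and outer medulla by limma's test of the difference itself. In each of them both regions had also passed the shared-high test against every other tissue. TCONS_00036298 (-2.96 on the log2 scale, outer medulla minus cortex), TCONS_00080466 (-2.5) and TCONS_00094771 (-2.33) were higher in cortex, and TCONS_00054117 (1.77) and TCONS_00094410 (1.92) were higher in outer medulla. The shared-high call of TCONS_00094410 was lost for 9 of 12 columns left out. Both outer medulla values of TCONS_00036298 were under the FPKM that 3 fragments give, so outer medulla is not shown to be above the other tissues there. Outer medulla column 1 of TCONS_00080466, at 0.129, was also under its limit of 0.133. With 2 columns per tissue, no single column could be tested as standing apart.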

How the results depend on the processing

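No transcript named by rule changed sign in any refit in which it was tested, but the balance of calls in the mean comparison did turn. Its 396 higher and 383 lower became 306 and 509 with tissues rescaled, 301 and 516 with columns rescaled, 189 and 241 with an FPKM minimum of 2 (666 tested), 70 and 0 with tissues as the unit and 236 and 12 with 2 groups of columns. The median difference over all tested moved from -0.05 to 0.21 without liver and 0.17 with a pseudocount of 0.01. The 101 shared-high transcripts became 53 at a minimum of 2, 29 with a pseudocount of 0.01 and 36 when adrenal gland column 2 was left out together with hypothalamus column 1. The same 101 became 74 with tissues rescaled and 75 with columns rescaled. The 16 that differed between regions became 5 at a minimum of 2, 5 with a pseudocount of 0.01, 65 with a pseudocount of 1, 32 without liver and 7 without those 2 columns. Shared-low transcripts, 0, became 1 without liver and 2 by the 5-fold rule, and the 205 without overlap became 103 at a minimum of 2. Those 205 became 160 with tissues rescaled and 163 with columns rescaled. The cause of these moves was not tested, except that fewer transcripts were tested at the higher minimum. With each column left out, higher calls ranged from 356 to 431, lower from 320 to 418, shared-high from 36 (59 for single columns) to 108, shared-low from 0 to 1, region differences from 7 (9 for single columns) to 27 and transcripts without overlap from 205 to 222. A lone column is then assumed to vary like the others. The replicate block for column number gave 395 higher, 380 lower, 93 shared-high and 14 differing between regions. Columns of 1 number were not treated as paired in the main fit. Correlations of their deviations ran from -0.07 to 0.13 over 15 pairs of tissues, which cannot show whether they share an animal. Liver column 2 had the lowest depth and limits its 0 values most.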
